A study of Rattus norvegicus with 18 samples.

Results

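Germ cells grown on feeder layers were compared with germ cells sorted on laminin. The feeder side held 5 libraries, from cells on STO feeders for 1, 5, 10 and 20 days and from cells on MSC1 feeders for 20 days, and the sorted side held 2, from laminin-binding and laminin non-binding cells. These 7 of the 9 libraries of the study, each put on 2 array types named A and B, make 14 of its 18 arrays. A gene was called apart where all 5 feeder libraries lay on one side of both sorted libraries. Of 13810 genes with a probe set, 12103 gave a signal above a floor of 50 in at least 1 of the 7 libraries and count as measured.

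All cells came from the testes of 22-day-old rats of a strain not given in the labels. MSC1 is a line of mouse Sertoli cells and STO one of fibroblasts from mouse embryos, and the labels do not say whether feeder cells were removed before the RNA was taken. For the sorted cells the labels give culture without a day, a medium or a feeder. Time in culture, feeder, sorting and any difference in handling therefore cannot be told apart between the sides. The 2 somatic libraries, from interstitial and from tubular somatic cells, serve only as context. Each population had 1 array per type, so the 5 feeder libraries differ in day and feeder and are not repeated cultures, and the 2 sorted libraries are opposite fractions of a sort.

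Spermatogonia sit on the basement membrane of the seminiferous tubule, where integrins on their surface hold laminin, and binding to laminin enriches the stem cells among them. In culture a feeder layer takes the place of the Sertoli cells that supply factors such as GDNF. Cells that do not bind include later germ cells, which have left the membrane. Each of the 10 measured genes of the general germ cell list was above the floor in at least 1 library of both sides. Their summed signal was 29392.3 to 35822.6 on feeders, 20206.2 to 35130.6 in sorted cells and 995.8 to 1050.6 in the somatic libraries. The summed signal of 20 Sertoli cell markers overlapped between the sides, at 6045.6 to 8909.7 on feeders and 6149 to 9939.5 in sorted cells, next to 13069.5 to 22123.2 in the somatic libraries. Sox9 and Gdnf were under the floor in all 7 libraries, and Amh, Inhbb and Krt18 also in both sorted ones. Sox9, Gdnf and Amh were under it in both somatic libraries too, so they cannot tell whether Sertoli cells were present.

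Of the measured genes 1178 were apart and higher on feeders, which is 9.73%, and 902 were apart and lower, which is 7.45%. The other 10023 overlapped, and the median difference between the side means over all measured genes was 0.09 on the log2 scale. When each array was scaled to the same 75th percentile in place of the same mean, the counts were 880 higher and 1208 lower, so which direction is the larger depends on the scaling. A gap of at least 2-fold between the nearest libraries of the sides was left by 56 genes higher on feeders, 0.463% of those measured, and by 68 genes lower, 0.562%. With the 75th percentile these were 33 and 98, and with quantile normalization 39 and 77. As a measure of array error, the mean difference between the sides was read on both types for 100 probe sets that they share, and the SD per type was 0.18 on the log2 scale, with 0.98 as the largest difference between types. Of these 100, 26 were apart on type A and 21 on type B, 16 of them the same way on both and 0 in opposite ways. Just inside the gap of 2-fold stood Add1 at 2.002 and Lta4h at 2.006 among the higher genes, and Zfp637 at 1.99 and Plpp3 at 1.98 stood just outside. In the lower direction Pcmt1 at 2.0003 and Fam131a at 2.005 were the last inside, and Rps24 at 1.997 and Grpel1 at 1.996 the first outside.

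The ranges of likeness between libraries overlapped within and across the sides. Over probe sets whose signal averaged 100 or more, Pearson's r between 2 feeder libraries ran from 0.76 to 0.92 for type A arrays and from 0.74 to 0.91 for type B arrays. Between a feeder and a sorted library it ran from 0.66 to 0.83 for type A and from 0.63 to 0.82 for type B. The laminin-binding and non-binding libraries had an r of 0.73 on type A and 0.69 on type B, which lies within the range between the sides. These correlations run across probe sets, which are not independent.

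The quality of the RNA moved with the sides. The signal of the 3' control probe set of Gapdh over that of the 5' one, a ratio that grows as RNA is degraded or as amplified copies get shorter, was 14.7 to 29.7 in the feeder libraries and 5.63 to 7.07 in the sorted ones on type A arrays. The type B arrays gave 15.0 to 27.1 for feeder libraries and 5.33 to 8.83 for sorted ones. For beta-actin the type A ratio was 25.8 to 94.3 on feeders and 8.91 to 21.6 in sorted cells, and the type B ratio 21.0 to 95.4 on feeders and 11.6 to 13.1 in sorted cells. Neither ratio overlapped between the sides on either type. The side of a library and the state of its RNA cannot be told apart in these data, and this holds for every difference given here.

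**Figure D1:**
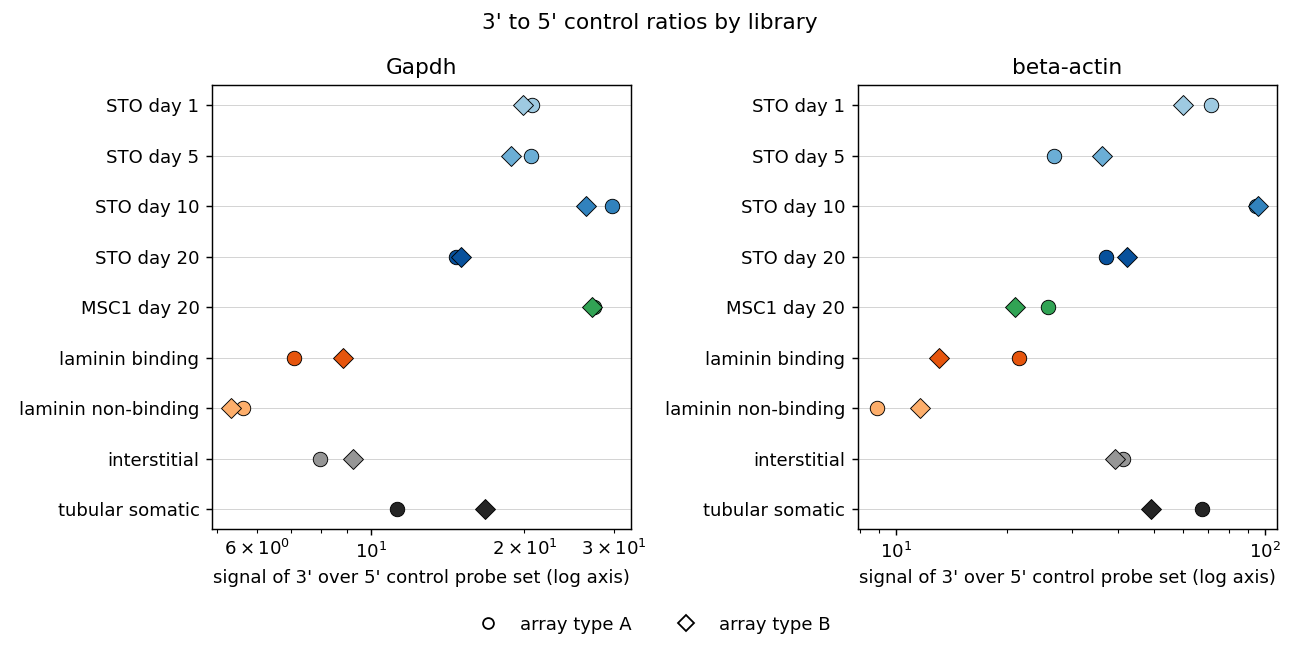
Signal of the 3' over the 5' control probe set of Gapdh and of beta-actin in each library on a log axis, with circles for array type A and diamonds for type B. All 5 feeder libraries lie above both sorted libraries, and the Gapdh ratio runs from 14.7 to 29.7 against 5.63 to 7.07 on type A.

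A limma fit of the 5 feeder against the 2 sorted libraries, over the 16515 probe sets that averaged 100 or more, called 36 probe sets that rose on feeders, 0.218% of those tested, and 24 that fell, 0.145%, after Benjamini-Hochberg adjustment. The spread in this test is that between libraries of different days, feeders and fractions and not between repeated cultures. An exact rank-sum test of a single probe set could not go below a two-sided p of 0.0952 with 5 against 2. All 36 and all 24 were also at least 2-fold apart, and 18 and 19 of them have 1 gene. The counts rest on few libraries. Without STO day 1, STO day 5, STO day 10 or MSC1 day 20 they were 7, 9, 4 and 4 higher and 0 lower in each case, where 896, 890, 812 and 934 lower probe sets had an unadjusted p under 0.05 in limma. Without STO day 20 they were 112 higher and 62 lower, without the laminin-binding library 92 and 165, and without the non-binding library 10 and 3. With the log2 Gapdh ratio of each array as a covariate, limma called 0 in either direction, with 750 higher and 728 lower at an unadjusted p under 0.05 and a smallest adjusted p of 0.55.

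In what follows the 5 signals of a gene on feeders are given in the order STO day 1, 5, 10 and 20 and MSC1 day 20, and the 2 sorted signals in the order laminin-binding and non-binding. Positions are those of the GRCr8 assembly. Fold changes are between the means of the log2 signals of the sides, and adjusted p-values are those of limma. In a mixed library fewer cells of a type and less RNA per cell cannot be told apart. Of the 56 higher genes 10 passed limma on the probe set used, and of the 68 lower ones 17.

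Among the genes higher on feeders and above the floor in all 7 libraries the widest gap was that of Csf1, the cytokine macrophage colony-stimulating factor, which in the mouse has been reported to act on spermatogonial stem cells. Rreb1 and Zfp292 had wider gaps, 5.14-fold and 3.79-fold, with limma adjusted p-values of 0.012 and 0.026. Each had 1 sorted library under the floor, which puts them outside the rule for named genes. Other type A probe sets of Zfp292 were apart in both directions. Csf1 (chr2:198065400-198084774) read 917.5, 725.4, 1224.5, 648.5 and 402.5 on feeders and 109.2 and 79.3 in sorted cells. Its lowest feeder library, MSC1, was 3.69-fold above its highest sorted one. The means differed 7.89-fold, a log2 difference of 2.98 with an SE of 0.43 and a limma adjusted p of 0.026. Only this type A probe set carried the difference. On type B 3 other probe sets of Csf1 overlapped between the sides, with log2 differences of 0.56, 0.05 and 0.35.

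Lgals1 and Cyb5r3 followed closely. Lgals1 (chr7:112365695-112368801) encodes galectin-1, a lectin that many fibroblasts secrete, and it read 499.2, 306.7, 500.7, 337.8 and 500 on feeders and 90.6 and 79.2 in sorted cells. It rose 4.95-fold, a log2 difference of 2.31 with an SE of 0.35 and a limma adjusted p of 0.030. Its signal was 399.3 in the interstitial and 824.2 in the tubular somatic library. Cyb5r3 (chr7:116186729-116204290) encodes the reductase that passes electrons from NADH to cytochrome b5, and it read 371.2, 656, 789.6, 594.1 and 585.7 on feeders and 80.1 and 109.3 in sorted cells. It rose 6.22-fold with a limma adjusted p of 0.026.

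Svil, Dapk3 and Igfbp7 also rose. Svil, an actin-binding protein under the cell membrane, read 363.1, 401.4, 428.9, 331 and 467.1 on feeders and 114.2 and 71.7 in sorted cells, 4.37-fold with a limma adjusted p of 0.034. Dapk3, a kinase that phosphorylates myosin light chain, read 648.7, 781, 930.2, 524.9 and 612.1 against 177.9 and 149.3, 4.21-fold with a limma adjusted p of 0.035. Igfbp7, a secreted protein that binds insulin-like growth factors, read 441.3, 467.6, 342.8, 842.1 and 698.3 against 120 and 75.8, 5.55-fold with a limma adjusted p of 0.040. The 3 genes differed in context. Svil and Igfbp7 were bright in interstitial cells, at 1239.1 and 2325.5, while Dapk3 read 92.9 there. Svil has 2 other measured probe sets, both on type B, which overlapped with the opposite sign.

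Fndc3c1, a fibronectin type III domain protein, was among the higher genes with low somatic signals. It read 527.7, 817.6, 941.7, 585.6 and 615.7 on feeders, 137.3 and 172.5 in sorted cells, and 20.7 and 17.2 in the interstitial and tubular libraries. It rose 4.43-fold with a limma adjusted p of 0.046.

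Cad, Twnk, Rnaseh1, Ppp4c and Zfp275 were apart by at least 2-fold with limma adjusted p-values of 0.055 to 0.079, and did not pass the test. Cad, which carries out the opening steps of pyrimidine synthesis, read 976.6, 1248.3, 1174.2, 975 and 1007 on feeders and 390.2 and 308.3 in sorted cells. Twnk, the helicase that unwinds mitochondrial DNA, read 1039.8, 695.5, 677.3, 836.1 and 832.4 against 283.3 and 162.3. A second probe set of Twnk on type B went the other way, with 285.4 to 411.8 on feeders against 736.5 and 484.2, so the direction of Twnk is unsure. Rnaseh1, which cuts the RNA of RNA and DNA hybrids, had the tightest feeder values of the 5 genes, 346.8, 395.7, 414, 400.2 and 391.1, against 97.8 and 142.1. Ppp4c, the catalytic subunit of protein phosphatase 4, and Zfp275, a zinc finger protein, differed 4.55-fold and 4.06-fold. With a floor of 100 the difference of Ppp4c was 3.02-fold.

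In 5 of the 56 genes both sorted libraries were under the floor, so that their folds are lower bounds. Adam4, a membrane protein of the ADAM metalloprotease family, read 223, 444, 221, 103.5 and 478.8 on feeders and 23.3 and 26.7 in sorted cells, at least 5.11-fold higher. Aars2, the mitochondrial alanyl-tRNA synthetase, was at least 3.90-fold higher, and Serpinf1, a secreted serpin, at least 3.45-fold. For Anpep, the cell surface aminopeptidase N, the bound was 3.40-fold, and for Ppp1r12b, a regulatory subunit of myosin phosphatase, 3.18-fold. None of these 5 passed limma, with adjusted p-values of 0.072 to 0.131. Such bounds scale with the floor by construction, and with a floor of 100 that of Adam4 was 2.55-fold. Anpep and Serpinf1 read 1007.2 and 482.6 in interstitial cells.

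**Figure D2:**
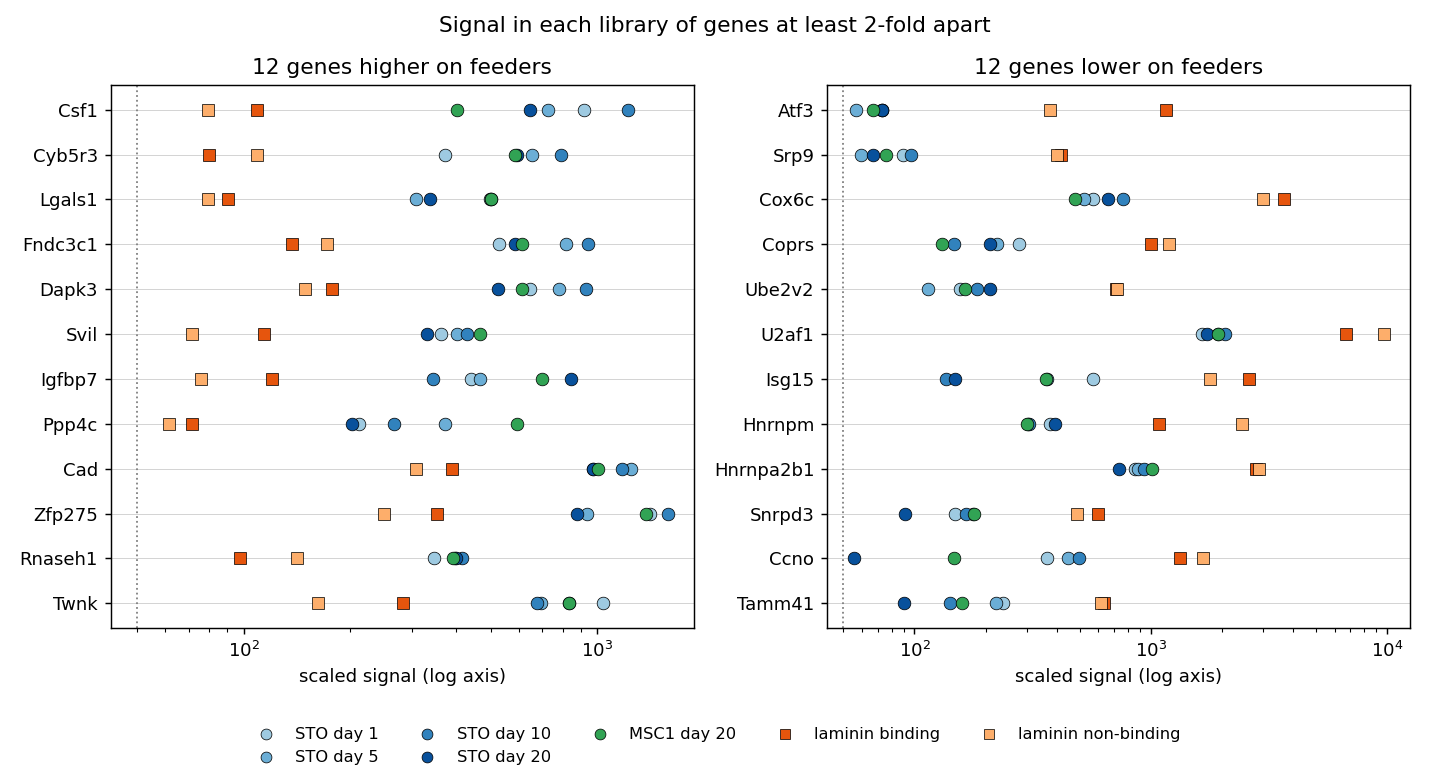
Scaled signal on a log axis of the 12 genes with the widest gaps in each direction among genes above the floor in all 7 libraries, with circles for feeder libraries, squares for sorted libraries and a dotted line at the floor of 50. Csf1 reads 402.5 to 1224.5 on feeders against 79.3 and 109.2, and Atf3 reads 56.8 to 73.1 against 376.3 and 1159.3.

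Atf3, a transcription factor induced by many kinds of stress, had the widest gap of the genes lower on feeders. Atf3 (chr13:105274103-105331653) read 73.1, 56.8, 73.1, 72.6 and 66.8 on feeders, all close to the floor, and 1159.3 and 376.3 in sorted cells. It fell by 3.28 on the log2 scale with an SE of 0.44 and a limma adjusted p of 0.024. The 9.69-fold difference of the means became 5.52-fold without the laminin-binding library and 17.0-fold without the non-binding one. In the somatic libraries Atf3 read 71.1 in interstitial and 408.7 in tubular cells. Of the 23 measured immediate early genes, 3 were apart and lower and 1 was higher, 13.04% and 4.35% against 7.45% and 9.73% of all genes, and Atf3 alone was past 2-fold. Ier3, with 35.6 to 96.2 on feeders against 168.4 and 136.4, and Dusp2, a phosphatase of MAP kinases, were the others lower, and Fosl1, an AP-1 subunit, read 269 to 471.8 on feeders against 200.4 and 160.8. The list's median difference was -0.35.

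Splicing factors and the respiratory chain each had 3 members past 2-fold. Of 40 measured genes of the RNA splicing and processing list 10 were apart and lower and 2 higher, 25% and 5% against 7.45% and 9.73% of all measured genes, and the median difference was -0.35. U2af1, which recognises the 3' splice site, read 1648.4, 1921.8, 2055.5, 1722.3 and 1927.3 on feeders and 6714.2 and 9707.8 in sorted cells. It fell by 2.13 on the log2 scale with an SE of 0.30 and a limma adjusted p of 0.026. Hnrnpm, a nuclear RNA-binding protein, read 373, 303.5, 303.9, 391.9 and 298.2 against 1088.2 and 2439.5 and fell by 2.30 with a limma adjusted p of 0.035. Hnrnpa2b1, of the same family, read 861.2, 882.6, 938.8, 736.5 and 1010.7 against 2791.5 and 2871.8 and fell by 1.68 with a limma adjusted p of 0.039. Its 2 other probe sets did not follow. On type A a dimmer one was apart the opposite way, at 188.6 to 530.1 on feeders against 129.1 and 152.4, and the one on type B overlapped. Outside the list, the spliceosome core protein Snrpd3 read 148.5, 176.8, 164.4, 91.2 and 178.9 against 595.2 and 487.8, with a limma adjusted p of 0.072. The members higher on feeders were Rbm25, at 369.2 to 681.7 against 177.1 and 217.5, and Luc7l3.

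Of 44 measured genes of oxidative phosphorylation 12 were apart and lower on feeders and 3 higher, 27.3% and 6.82% against 7.45% and 9.73% of all measured genes. The other 29 overlapped, and the median difference was -0.23. Cox6c (chr7:69014410-69027145), a subunit of cytochrome c oxidase, read 566.9, 522.1, 764.6, 660.1 and 479.2 on feeders and 3664.5 and 2999.3 in sorted cells. It fell by 2.49 on the log2 scale with an SE of 0.31 and a limma adjusted p of 0.015. Ndufb3 of complex I read 1329.7, 1507.6, 1424.8, 671.7 and 1478.1 against 8459.5 and 3572.9, and Uqcrfs1, the Rieske protein of complex III, read 822.5, 589.5, 430, 548.2 and 308.1 against 1841.9 and 1847.2. Neither passed limma, with adjusted p-values of 0.072 and 0.079. Ndufb3 differed 4.46-fold, and 2.90-fold without the laminin-binding library. Among the rest Cox7c read 365.9 to 831.1 against 2862.5 and 1177.1, and Ndufs6 read 509.2 to 2377.6 against 7062.9 and 3386.7. Cyc1, Sdhb and Atp5f1d, also of the list, were apart in the other direction, Cyc1 with 1799.6 to 3473.2 on feeders against 944.7 and 1505.3. Tamm41, a mitochondrial enzyme on the way to cardiolipin, read 236.3, 220.6, 141.6, 90.3 and 158.7 against 634.8 and 615.3.

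Cytosolic ribosomal proteins gave smaller gaps in the same direction. Of 41 measured, 11 were apart and lower, which is 26.8% against 7.45% of all genes, and 1 was higher, 2.44% against 9.73%. The median difference was -0.50, but none was 2-fold apart. Rps24 came nearest, at 174.2, 112.3, 109.5, 114.9 and 174.8 on feeders against 437.7 and 349.1. Rplp0 of the stalk was the member higher on feeders, at 1832.5 to 3604.6 against 1237.2 and 1517. The median level of the list, relative to each gene's mean over the 7 libraries, was 0.62 in laminin-binding and 0.15 in non-binding cells, while on feeders it ran from -0.41 to 0.21. Pseudogenes of ribosomal protein genes share their sequence, so single members are less sure.

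Of 23 measured genes of the oxidative stress response 5 were apart and lower and 1 higher, 21.7% and 4.35% against 7.45% and 9.73% of all genes, and 17 overlapped. Sod1, the cytosolic superoxide dismutase, read 1876.6, 1879.6, 1924.1, 2807.7 and 2324.9 on feeders and 7045.1 and 6089.6 in sorted cells, and fell by 1.62 on the log2 scale with a limma adjusted p of 0.042. Sod2, the mitochondrial one, read 222.8, 222.2, 153.8, 267.1 and 133 against 638.8 and 637.9, with a limma adjusted p of 0.079. Hmox1 and Gclm, the heme-degrading enzyme and a subunit that makes glutathione, were among the lower ones with Mgst1, and Gpx3 was higher.

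Srp9, Coprs and Ube2v2 also fell, each with a narrow spread in sorted cells. Srp9, of the signal recognition particle, read 89, 59.3, 96.7, 66.9 and 76.1 on feeders and 418.3 and 402.2 in sorted cells, a log2 fall of 2.43 with an SE of 0.35 (limma adjusted p = 0.026). Coprs, a histone-binding partner of the arginine methyltransferase PRMT5, read 276.9, 224.4, 146.5, 208.7 and 130.9 against 1005.9 and 1197.5, 5.77-fold with a limma adjusted p of 0.030. Ube2v2, a partner of a ubiquitin-conjugating enzyme, read 156.2, 114.5, 184.5, 209.7 and 164 against 711.5 and 720.2, 4.40-fold with a limma adjusted p of 0.035. Coprs was dim in the somatic libraries, at 157.8 and 196.2. Slc1a4, a carrier of alanine and serine, read 74, 16.1, 83.4, 23.9 and 58.1 on feeders and 274.3 and 619.1 in sorted cells and fell by 2.74 with a limma adjusted p of 0.039. Its fold of 6.68 was 4.12 with a floor of 100, 10.0 without the laminin-binding and 4.44 without the non-binding library.

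Ccno, a cyclin best known from cells that build many cilia, varied most among the 12 feeder-lower genes with the widest gaps. It read 364.1, 446.9 and 497.2 on STO at days 1, 5 and 10, 55.2 on day 20 and 146.7 on MSC1, against 1326.2 and 1665.5 in sorted cells. Its limma adjusted p was 0.139. In the somatic libraries it read 15.8 and 7.8. Cct7, a subunit of the CCT chaperonin, read 1507.6 to 2010.6 on feeders against 4395.6 and 4674.2, with a limma adjusted p of 0.074, and Cct4 of the same ring read 643.6 to 1788.2 against 3139.6 and 6093.8. Of 32 measured heat shock and chaperone genes 4 were apart and lower and 2 higher, 12.5% and 6.25% against 7.45% and 9.73% of all genes. The unfolded protein response list had 5 lower and 2 higher of 24, 20.8% and 8.33%. The proteasome list had 6 lower of 31, 19.4%, and none higher, Psmd3 with the widest gap, at 75.6 to 122.2 against 411.7 and 242.1.

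In 7 of the 68 lower genes all 5 feeder libraries were under the floor. Spef1, a protein of microtubule bundles and sperm tails, read 14.8 to 31.1 on feeders and 200.7 and 265.5 in sorted cells, at least 4.62-fold lower. Fam229b read 19.8 to 44.3 against 185.1 and 3916.7, and Fam50b 4.3 to 28.8 against 121.2 and 4835.4. Most of the difference of Fam229b and Fam50b lay in the non-binding library, since their bounds of 17.0-fold and 15.3-fold were 3.70-fold and 2.42-fold without it. Zpbp, an acrosome protein that binds the egg coat, showed the same pattern above the floor. It read 82.5 to 124.3 on feeders against 272.9 and 2526.4, 7.64-fold and 2.51-fold without the non-binding library. All 13 measured genes of the list of pachytene and later stages had a lower mean on feeders, against 4978 of all 12103 genes. The median difference was -1.30, yet 2 were apart, both lower, 15.4% against 7.45% of all genes. The median level of that list was 2.83 in the non-binding library and -0.53 in the laminin-binding one, next to -0.74 to -0.33 on feeders. Ifnk, an interferon, Atxn7, of a histone deubiquitinase module, and Pfdn5, a prefoldin subunit, were at least 2.57-fold, 2.56-fold and 2.38-fold lower. With a floor of 100 these bounds were 1.28-fold, 1.28-fold and 1.19-fold, and that of Spef1 was 2.31-fold. Spef1, Ifnk, Atxn7 and Pfdn5 were too dim to be fitted by limma.

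Genes induced by interferon formed a further group. These genes are switched on by STAT and IRF factors that bind a response element in their promoters. Of 30 measured genes of interferon response and antigen presentation 7 were apart and lower on feeders, 23.3% against 7.45% of all genes. The 2 that were higher make 6.67% against 9.73%, and the median difference was -0.16. Isg15, a ubiquitin-like protein, read 569.3, 363.9, 136.5, 149 and 360.7 on feeders and 2600 and 1779.9 in sorted cells, 7.88-fold with a limma adjusted p of 0.068. Irf7, a factor that amplifies the response, read 93.3, 102.4, 94.7, 84.6 and 268.8 against 1022.6 and 474.8. Rsad2, an antiviral enzyme, read 55.9, 79.3, 74.1, 94.5 and 61.6 against 319.5 and 125.1. Ifi27, Ifi44, Mx2 and B2m were the other lower members, with gaps of 1.14, 1.08, 1.21 and 1.01-fold between the nearest libraries. None of these 7 list members passed limma on the probe set used, with 0.068 as the lowest adjusted p of the 6 fitted, and Mx2 was too dim to be fitted. Gbp4, outside the list and the rule for named genes, read 69.9, 71, 9.6, 41.3 and 31.2 against 353.7 and 472.3. It had a limma adjusted p of 0.026 and read 11458.2 in tubular somatic cells. A second probe set of B2m, the light chain of class I molecules, read 117.4, 73, 24.6, 136.1 and 115.1 against 882.4 and 537.4 and fell by 2.90 with a limma adjusted p of 0.034. Irf8 and Irf9 were the members higher on feeders.

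Every one of the 7 lower members was brighter in the tubular somatic than in either sorted library. Isg15 read 24229.7 there and 596 in interstitial cells, Irf7 6321.1 and 547, and Rsad2 1773.5 and 191.2. The list's summed signal was 4038.1 to 10655.7 on feeders, 6973.8 to 18004.9 in sorted cells and 21431.8 to 83280 in the somatic libraries. Whether somatic cells take part in the difference was not tested. The median of the list depended on single libraries and on the floor, being 0.13 without the laminin-binding library and 0 with a floor of 100.

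**Figure D3:**
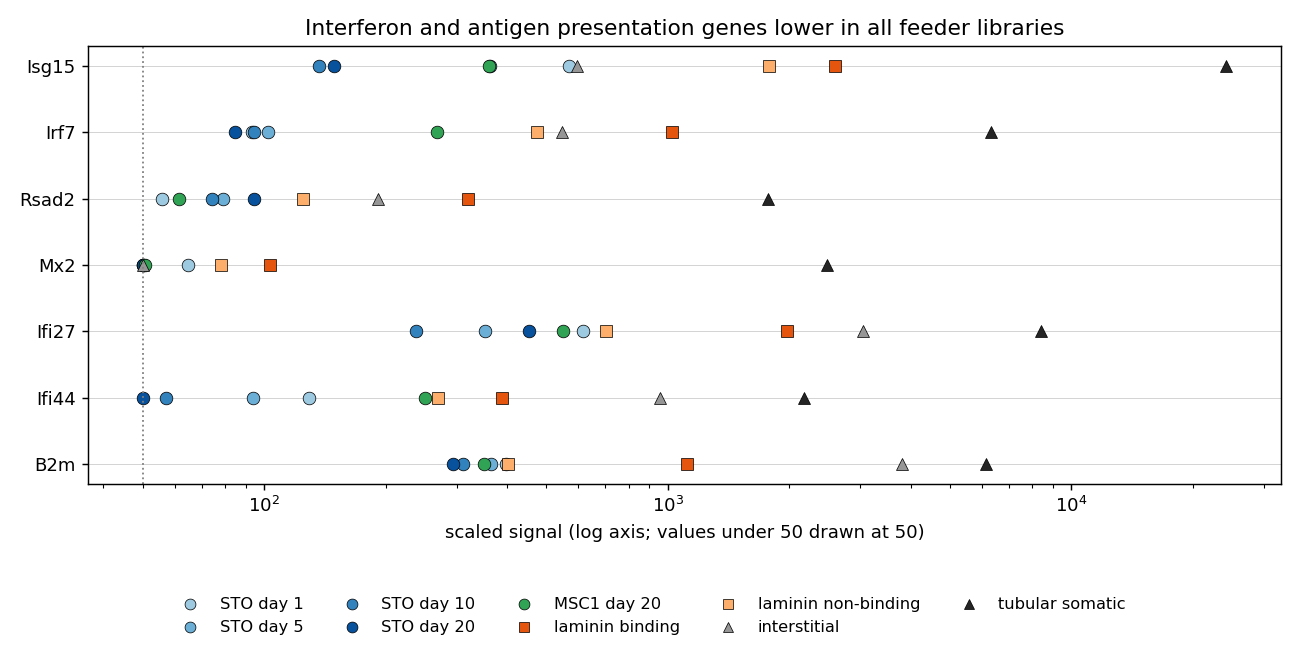
Scaled signal on a log axis, values under 50 drawn at 50, of the 7 genes of interferon response and antigen presentation that were lower in all feeder libraries, with circles for feeder, squares for sorted and triangles for somatic libraries. Isg15 reads 136.5 to 569.3 on feeders, 1779.9 and 2600 in sorted cells and 24229.7 in tubular somatic cells.

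The promoters of Irf7, Rsad2 and Ifi44 are shown for a motif that occurs in lower and in other members of this interferon list. Whether the motif goes with being lower on feeders was not tested. RefSeq windows of GRCr8, from 250 bases before to 50 after the start of each gene, were held for 5 of the 7 lower members, and all 5 contained the core of the interferon-stimulated response element, which was read as GAAA, any 2 bases and GAAA on either strand. It was in 11 of 20 windows of the other measured members, 55%, in 3.77% of all 27457 windows and in 2.92% of the 10024 windows of measured genes. The capitals mark the matches, none of which overlapped the NRF1 or CRE motifs searched below. The window of Irf7 is chr1:205799974-205800273 on the minus strand, that of Rsad2 chr6:48788071-48788370 on the minus strand and that of Ifi44 chr2:243303791-243304090 on the minus strand. The match begins 69 bases before the start of Irf7 and 147 before that of Rsad2, and Ifi44 has 2 matches.
Irf7: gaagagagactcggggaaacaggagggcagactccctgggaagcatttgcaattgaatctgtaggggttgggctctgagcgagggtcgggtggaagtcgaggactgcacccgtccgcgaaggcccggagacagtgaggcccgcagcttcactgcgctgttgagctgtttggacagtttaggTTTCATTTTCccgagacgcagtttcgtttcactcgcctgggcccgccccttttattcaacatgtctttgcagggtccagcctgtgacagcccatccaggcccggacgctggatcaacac
Rsad2: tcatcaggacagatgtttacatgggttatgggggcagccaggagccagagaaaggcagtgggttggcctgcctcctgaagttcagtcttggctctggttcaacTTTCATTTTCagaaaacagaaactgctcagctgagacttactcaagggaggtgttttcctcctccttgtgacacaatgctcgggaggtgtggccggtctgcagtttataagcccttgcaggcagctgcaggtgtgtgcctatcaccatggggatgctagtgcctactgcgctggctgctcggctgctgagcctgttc
Ifi44: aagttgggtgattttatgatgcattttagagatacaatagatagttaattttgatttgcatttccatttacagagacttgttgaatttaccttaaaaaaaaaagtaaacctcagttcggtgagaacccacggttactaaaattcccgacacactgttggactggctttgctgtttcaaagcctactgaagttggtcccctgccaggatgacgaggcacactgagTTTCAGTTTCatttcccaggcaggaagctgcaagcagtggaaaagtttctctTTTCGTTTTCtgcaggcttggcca
A match is a stretch of letters and does not show that a factor binds there.

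The genes apart were also read for 2 other motifs. The NRF1 core, read as GCGCA, any base and GCGC on either strand, was in 14.6% of 756 windows of genes lower on feeders, in 10.5% of 1009 windows of genes higher and in 9.50% of windows of measured genes. The CRE core TGACGTNA, on either strand, was in 6.08%, 4.96% and 4.88%. For genes past 2-fold the NRF1 core was in 16.9% of 59 windows of lower genes and 4.26% of 47 windows of higher genes. The CRE core had the reverse order there, at 6.78% of the lower and 10.6% of the higher. Genes lower on feeders had shorter spans, with a median span of 17155 bases for the 902 and 13915 for the 68, against 26621.5 for the 1178, 24927 for the 56 and 23183 for all measured genes. The median over genes of the mean signal was 361.5 for the 902 and 259.2 for the 1178, next to 192.9 for all, and 216.4 for the 68 and 266.0 for the 56.

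Of 35 measured genes of the fibroblast and extracellular matrix list 11 were apart and higher on feeders, 31.4% against 9.73% of all genes, and none was lower. The other 24 overlapped, and the median difference was 0.45. Lgals1 was the member past 2-fold. Col1a2, a chain of type I collagen, read 302.2, 98.3, 179.9, 660.6 and 1285.3 on feeders and 32.2 and 53.5 in sorted cells, and Timp2, an inhibitor of matrix proteases, read 892.6, 402.8, 679.6, 444 and 780.9 against 231.8 and 173.7. Pdgfra, a receptor of mesenchymal cells, read 469.6, 601.9, 649.2, 300.3 and 105.8 against 83.4 and 27. The limma adjusted p was 0.152, 0.102 and 0.115 for these 3, so they did not pass. The summed signal of the 37 genes of the list on the arrays was 6577.8 to 15279.1 on feeders, 5099.3 to 6957.2 in sorted cells and 31175.1 to 56219.1 in the somatic libraries. Serpinh1 and Lum were under the floor in all 7 libraries, and Loxl1, Postn and Pdgfrb in both sorted ones. Serpinh1 and Pdgfrb were under it in both somatic libraries too. The part of somatic or feeder layer cells in these differences was not tested.

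In the list of integrins and laminin adhesion 6 of 22 measured genes were apart and higher, 27.3% against 9.73% of all genes. None was lower, against 7.45% of all genes, and 16 overlapped, with a median difference of 0.44. Dag1, the laminin receptor dystroglycan, read 864.4, 662.8, 596, 740.4 and 1051.3 on feeders and 314 and 212.8 in sorted cells. Pxn, an adaptor of focal adhesions, read 569.1, 642.1, 831.1, 709.1 and 842.7 against 226.2 and 325.4. Bsg, a partner of integrins, read 633.9, 889.3, 1032.7, 1378.1 and 809.3 against 258 and 429.8. Their limma adjusted p-values were 0.085, 0.093 and 0.114. Cd47, Tln1 and Ilk were the other 3, with gaps of 1.30, 1.10 and 1.02-fold between the nearest libraries. None of the 6 was 2-fold apart.

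Most markers of germ cell stages overlapped between the sides, as did 10023 of all 12103 measured genes. Of 21 measured markers of undifferentiated spermatogonia 19 overlapped and 1 was apart in each direction. That is 4.76% each, against 9.73% higher and 7.45% lower of all genes. Etv5, a GDNF-regulated factor, read 322.5, 381.9, 254.7, 282.7 and 707.2 on feeders and 198.9 and 236.6 in sorted cells, and Epcam read 768.1, 703.7, 771.2, 2001.9 and 635.7 against 2152.6 and 2616.6. The gap between the nearest libraries was 1.08-fold in both, and neither passed limma, at 0.445 and 0.160. Ret, the GDNF receptor, read 1729.5, 767.9, 317.5, 48.6 and 1144.7 on feeders and 706.8 and 87.3 in sorted cells, so both sorted values lay within the feeder range. None of the 7 differentiating and none of the 8 meiotic markers measured was apart, next to 2080 of all 12103 genes. Tex15, which acts in the piRNA pathway, was higher on feeders, at 8348.8 to 17496.7 against 6777.5 and 3681.2, and Mov10l1, a piRNA helicase, lower, at 420.1 to 645.9 against 687 and 1686. Of the 18 measured genes of GDNF and FGF signalling 17 had a higher mean on feeders, against 7125 of all 12103 genes, and the median difference was 0.64. The groups overlapped in 16, and Etv5 and Fgfr2 were apart and higher, 11.1% against 9.73% of all genes. Of 33 genes of DNA replication and cell division 3 kinesins of mitosis, Kif11, Kif20a and Kif23, were apart and higher, 9.09% against 9.73% of all genes.

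**Figure D4:**
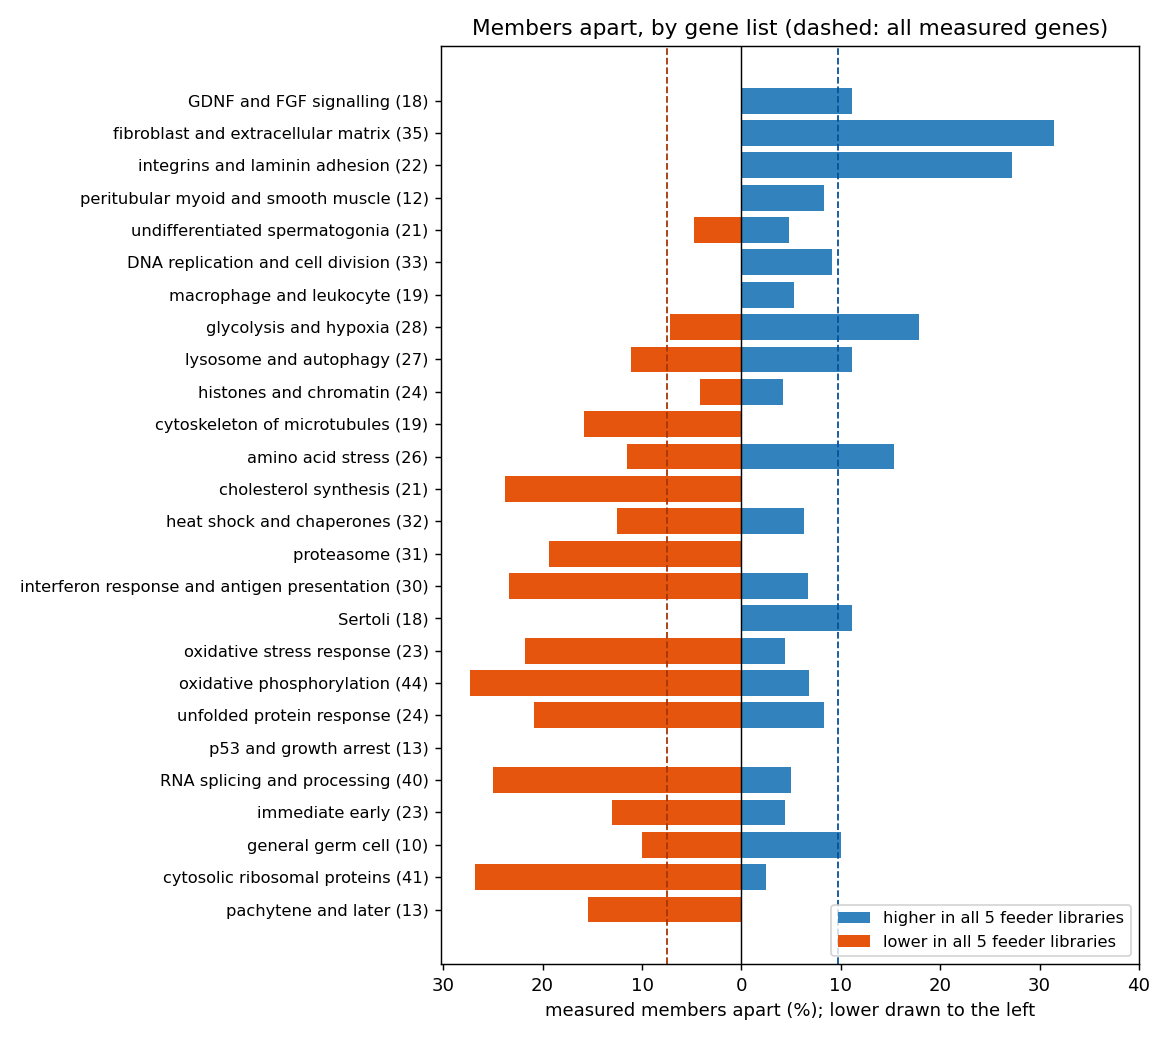
Share of the measured members of each gene list (number in brackets, lists with at least 10) that was higher in all 5 feeder libraries, drawn to the right, or lower in all 5, drawn to the left, in percent, with dashed lines at 9.73% and 7.45% for all measured genes. Lists are ordered by their median difference, and matrix genes reach 31.4% on the right while oxidative phosphorylation reaches 27.3% on the left.

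Fewer libraries make the rule easier to meet, so the list counts and those over all genes grew when a sorted library was left out. Without the non-binding library 23 of 44 genes of oxidative phosphorylation and 19 of 41 ribosomal proteins (17 without MSC1) were lower. So were 14 of 30 interferon genes and 12 of 31 proteasome genes, against 2791 of all 12007 genes measured. Without the laminin-binding library 22 of 40 splicing genes and 12 of 31 proteasome genes were lower, against 2390 of all 12006 genes. Higher were 11 of 22 adhesion genes and 11 of 18 genes of GDNF and FGF signalling (5 without STO day 20), against 3176 of all 12006. Over all genes 1076 of 11916 were lower without MSC1, and 1831 of 12073 were higher without STO day 20.

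The largest differences of all in limma lay in probe sets of type B that were bright in every feeder library and dim in both sorted ones. They fall outside the rule for named genes and were chosen after their values were seen. Eef2, the elongation factor that moves the ribosome along, read 4857.5, 3709.4, 4963.6, 2003.3 and 5257.7 on its type B probe set and 60.2 and 68.1 in sorted cells. That is a log2 difference of 5.94 with an SE of 0.43 and a limma adjusted p of 0.000461. The somatic libraries read 106.8 and 116.3. On type A the probe set of Eef2 overlapped between the sides, at 852.5 to 1953.1 against 158 and 1106.2, and read 1641.7 and 1196.2 in the somatic libraries. Scd2, a fatty acid desaturase, read 821.9 to 1768.2 on its type B probe set against 5.1 and 13, while its brightest type A probe set overlapped, at 95.6 to 432.9 against 98.8 and 47.9.

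For Tubb6, a beta-tubulin, probe sets went in opposite directions. The type B one read 641.4, 307.8, 488, 177.2 and 600.8 on feeders against 10.1 and 15.1, and the type A one read 47.4, 74.1, 77.6, 70.3 and 83 against 195.9 and 122.1. So no direction is given for Tubb6. On type B 2 probe sets with no gene in the annotation read 3269.5 to 5372.1 and 3157.2 to 7654.8 on feeders. In sorted cells the former read 159.1 and 150.9 and the latter 180.2 and 37.1. Of the 36 probe sets that rose, 22 had neither somatic library on the feeder side of the midpoint, and 14 of the 24 that fell. Type B carried 23 such calls when it was fitted alone and type A 16.

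**Figure D5:**
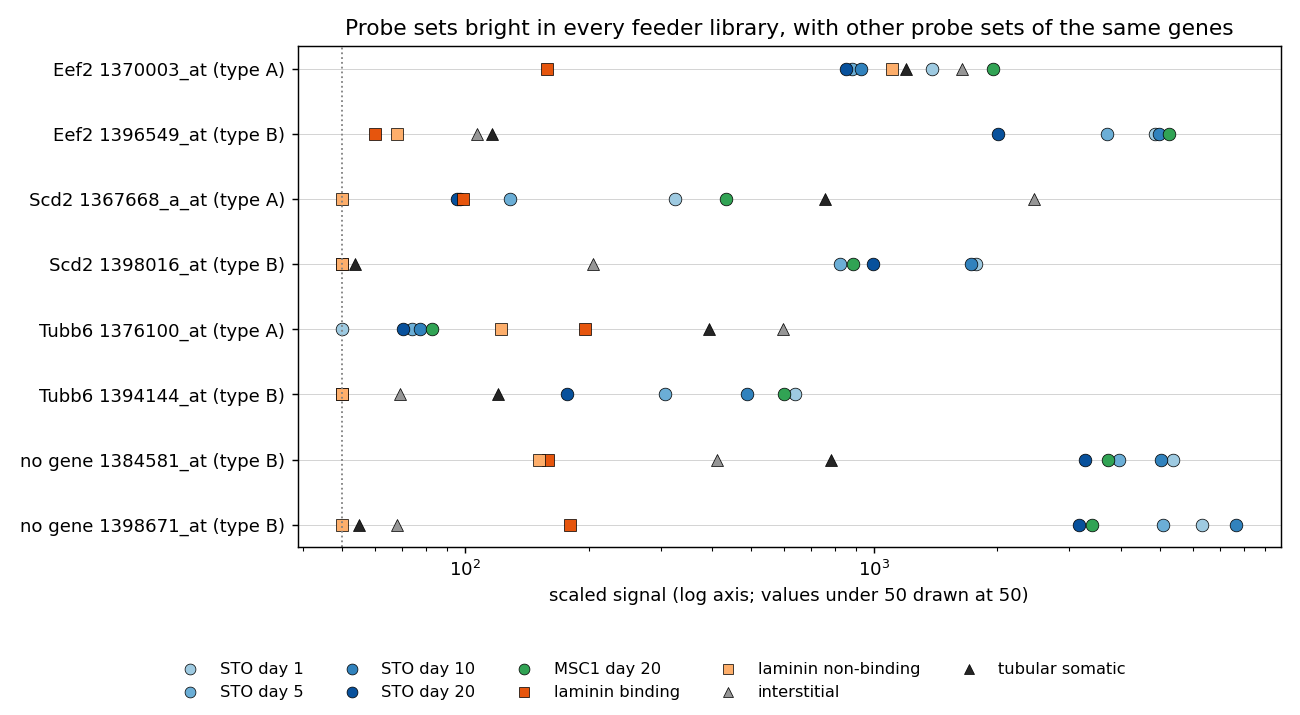
Scaled signal on a log axis, values under 50 drawn at 50, of probe sets bright in every feeder library, with other probe sets of Eef2, Scd2 and Tubb6, and circles for feeder, squares for sorted and triangles for somatic libraries. Eef2 reads 2003.3 to 5257.7 on feeders on type B against 60.2 and 68.1, while its type A probe set overlaps.

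Disagreement between probe sets was not rare among the genes past 2-fold. The 56 higher genes had 23 other measured probe sets, of which 3 were apart the same way, 3 the opposite way, and 13 and 4 overlapped with the same and the opposite sign. The 68 lower genes had 22, with 5, 1, 6 and 10. A gene's call here is therefore a call on 1 probe set, the brightest of type A where that type holds the gene, and a type B probe set of the same gene can be brighter.

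Each of the 5 feeder libraries was the nearest to the sorted side in some of the genes past 2-fold. In the 56 higher genes STO day 20 lay nearest to the sorted side in 21 and STO day 1 in 15, and MSC1 in 4. In the 68 lower genes the nearest was STO day 1 in 22, STO day 20 in 19 and MSC1 in 6. MSC1 lay within the range of the 4 STO libraries in 35 of the 56 and in 45 of the 68. On the sorted side laminin-binding cells were the nearer of both in 35 of the 56 and in 41 of the 68. The somatic libraries were split, since for the 56 higher genes both lay on the feeder side of the midpoint in 16 and neither in 27, and for the 68 lower genes both did in 25 and neither in 27.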

How the data were processed

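Signals of 14 arrays from 7 rat germ cell libraries, with 4 somatic arrays as context, were used as deposited. Per the labels, the authors amplified 50 ng of RNA in 2 rounds and scaled the signal intensity of each array to a mean of 250, with detection calls at a Tau of 0.015. The software behind these intensity values is not given in the sources used here. Left out were 57 control probe sets per type, and 100 probe sets shared by both types were counted on type A. Probe sets were named through the platform annotation and RefSeq, and only those with 1 gene (12789 on type A, 7570 on type B) were named.

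Signals were raised to a floor of 50 and taken to log2. A gene was read on its brightest probe set, on type A where that type holds the gene. limma 3.58.1 fitted feeder against sorted libraries within each type, with a variance trend, for probe sets averaging 100 or more. The false discovery rate was 0.05 over both types. The fit was tested on simulated type A data with independent noise and no differences of day, feeder or RNA state. That test cannot show whether the rate holds in these libraries. With 1 array per population and type, the number of libraries limits the precision. Named were, in each direction, the 12 called genes with the widest gaps among those above the floor in all 7 libraries, up to 6 with the dim side under it, called list members, and list members for contrast. Members and lists were chosen with earlier results of these data known. Floors, scalings, array types, filters and single libraries were varied.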

Additional observations from a re-analysis of the deposited data

Results flagged for a closer look

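In 3 of 36 named genes tested, 1 feeder library stood apart from the other 4. Among repeats of 1 culture, chance alone gives such a library in about 1 in 20 groups. The feeder libraries differ in day and feeder, and the genes were chosen by these same values, so that rate does not carry over. It was STO day 20 each time, at the low end of the log2 signals. In Aars2, which read 119.2 on STO day 20 and 213.4 to 235.2 in the other feeder libraries, the distance to the next library was 0.857 of the whole range. The share was 0.845 in Ndufb3, at 671.7 against 1329.7 to 1507.6, and 0.724 in Snrpd3, at 91.2 against 148.5 to 178.9. The critical value for 5 libraries is 0.71. In Ndufb3 and Snrpd3 this library lay farther from the sorted side than the other feeder libraries, and in Aars2 it lay nearer.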

How the results depend on the processing

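No paired analysis was possible because each population has 1 library per array type and the replicate numbers pair nothing. None of the 462 values of 42 named genes reversed under another floor, scaling or left-out library. These genes were chosen with all 5 feeder libraries on one side, so another floor or a left-out library could not reverse them. A change not smaller than the SD of the 5 feeder libraries was counted as moved, which gave 107 values. That SD is 0 where all 5 are under the floor, as in Spef1, so every value of such genes was counted. Genes apart were 318 higher and 417 lower on type B alone. Genes past 2-fold were 21 and 28 on type B, 7 and 15 with a 3-fold gap, and 33 higher with the 75th percentile. limma called 16 higher on type A alone, 23 higher and 6 lower on type B alone, 20 and 37 without a minimum signal, 37 lower with a floor of 100, and 0 and 0 with the Gapdh covariate, where 750 and 728 had an unadjusted p under 0.05. Leaving out 1 library gave 1298 to 3176 higher and 973 to 2791 lower genes apart, and 64 to 385 and 80 to 503 past 2-fold. The rule is easier to meet with fewer libraries, and the largest counts came without a sorted library (385 and 503 without laminin-binding cells). Without STO day 20, 1831 genes were higher and 116 past 2-fold. For limma the range was 4 to 112 higher and 0 to 165 lower. Medians that reversed were those of interferon response (0.13 without laminin-binding cells, in a range from -0.56), the proteasome (0.0034 with quantile normalization) and cholesterol synthesis (0.055 without STO day 20, 0.00072 without MSC1, 0.26 without laminin-binding cells, in a range from -0.48). The causes were not tested. Signals near the floor limit what dim genes show.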

Other observations

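Of 28 measured genes of glycolysis and hypoxia 5 were apart and higher on feeders and 2 lower, 17.9% and 7.14% against 9.73% and 7.45% of all measured genes, with a median difference of 0.24. Gpi, which interconverts glucose and fructose phosphates, read 315.8, 341.1, 462.9, 303.7 and 454.3 on feeders and 161.1 and 127.6 in sorted cells. Eno1, an enolase, read 612.4, 346.7, 371.1, 406.4 and 996.1 against 138.7 and 240.6. Neither passed limma, with adjusted p-values of 0.101 and 0.168. Hk1, a hexokinase, was lower, at 98.4 to 223.2 against 299.8 and 253.5.

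In cholesterol synthesis 5 of 21 measured genes were apart and lower, 23.8% against 7.45% of all genes, and none was higher, while the median difference of the list was 0.00 on the log2 scale. Cyp51, a demethylase of lanosterol, read 366.5, 409.1, 575.7, 855.3 and 181.1 on feeders and 1066.3 and 980.9 in sorted cells, with a limma adjusted p of 0.272. Fdps, which makes farnesyl diphosphate, read 1218.5, 1349.1, 1353.3, 824.3 and 819.2 against 2383.1 and 1534.9, with a limma adjusted p of 0.289.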
